A study of Drosophila sechellia x Drosophila simulans with 8 samples.

Results

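HDAC6 is an X-linked gene that encodes a histone deacetylase family member acting mostly in the cytoplasm. It is 1 of the 14176 genes in the deposited gene tables and 1 of the 2158 on the X. It was chosen by name because earlier work on these data had found it lower in female than in male oenocytes. The sex difference in either tissue is therefore described here without a test, and p-values are given only for its tissue differences, which share libraries with that choice, and for its allelic ratio.

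HDAC6 proteins remove acetyl groups from proteins outside the nucleus. In mammals the best known substrates are alpha-tubulin, the main building block of microtubules, and the chaperone Hsp90. HDAC6 also binds ubiquitin chains, and in Drosophila melanogaster it links damaged, ubiquitin-tagged proteins to autophagy when the proteasome is impaired. Male flies carry 1 X and raise its transcription through the dosage compensation complex, so an X-linked gene is commonly found at similar levels in both sexes.

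RNA came from F1 hybrids of D. sechellia and D. simulans, which inherit 1 chromosome set from each species, and the labels name no transgene, drug or other treatment. Flies aged 10 days gave both tissues, each taken apart from the dorsal abdomen at evenly spaced times of day: oenocytes, which produce the hydrocarbons of the cuticle, and the fat body, a store of nutrients comparable in role to liver and adipose tissue. The 4 groups were female oenocytes, male oenocytes, female fat body and male fat body, with 2 libraries each. The labels do not name the mother's species or say whether the libraries of a group came from separate flies, so p-values measure only the spread between these libraries, which may be technical.

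Estimated counts from the pseudoaligner kallisto summed to 10732070 to 34474092 per library, and aligned reads assigned to genes to 2275755 to 4642417. Counts of the pair of male oenocyte libraries agreed almost within sampling noise, with a chi-square of 1.08 per degree of freedom over 3286 transcripts, where the remaining groups gave 2.96 to 5.79. These libraries were therefore summed and counted as 1 sample in the fits, except where an alternative kept them apart. Of the oenocyte markers measured, DesatF, a fatty acid desaturase gene, was higher in oenocytes in each sex (2544 to 2725 against 25.7 to 30.4 TPM, transcripts per 1000000 transcripts, in females, and 143 to 145 against 4.0 to 4.3 in males). Desat1, the other one, did not separate the tissues as labelled, at 5214 to 6648 TPM in oenocytes and 8822 to 12444 TPM in fat body. Female oenocytes also held 36351 to 37413 TPM of the yolk protein gene Yp2, made in female fat body, where Yp2 was at 87132 to 88267 TPM. In males Yp2 was at 56.3 and 67.2 TPM in oenocytes and 54.6 and 84.7 TPM in fat body. The fat body marker Obp99a was at 586 to 720 against 4754 to 5051 TPM in females, and 16.3 to 16.8 against 234 to 252 TPM in males. Obp99b was at 18.3 to 21.6 against 33.8 to 36.3 TPM in females, and 32.7 to 35.6 against 451 to 466 TPM in males. Fbp2 was at 0.25 TPM or less in each library. The listed hemocyte, neuron and trachea markers could not be matched by symbol. In bulk tissue, fewer cells of a type and less RNA per cell cannot be told apart.

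The tables pair HDAC6 with a single transcript of 4507 bases, FBtr0352276, whose TPM in the authors' transcript summary equalled those of the gene in each of the 8 libraries. Its level is given in CPM (counts per 1000000), which here are estimated counts divided by the library total after TMM scaling, a correction for a few very abundant transcripts. HDAC6 was at 106 and 94.5 CPM in female oenocytes. Male oenocytes gave 484 and 482 CPM. Female fat body gave 513 and 499 CPM, and male fat body 854 and 751 CPM. Female oenocytes were thus the low group and male fat body the high one, and no library of one group overlapped a library of another.

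The deposited gene TPM kept the same lowest and highest groups, but male fat body stood further above the others. Its mean TPM was 2.49-fold that of female fat body and 2.12-fold that of male oenocytes, against 1.58-fold and 1.66-fold in CPM. Oenocytes had 27.8 and 24.3 TPM in females and 125 and 124 TPM in males. Fat body had 111 and 101 TPM in females and 291 and 236 TPM in males. Between its extremes the order depended on the scale, because male oenocytes lay just below female fat body in CPM and just above it in TPM. Even at its lowest HDAC6 was not a rare transcript. In female oenocytes its TPM exceeded those of 85.4% and 84.3% of all genes, and in male fat body those of 96.5% and 96.0%.

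**Figure D1:**
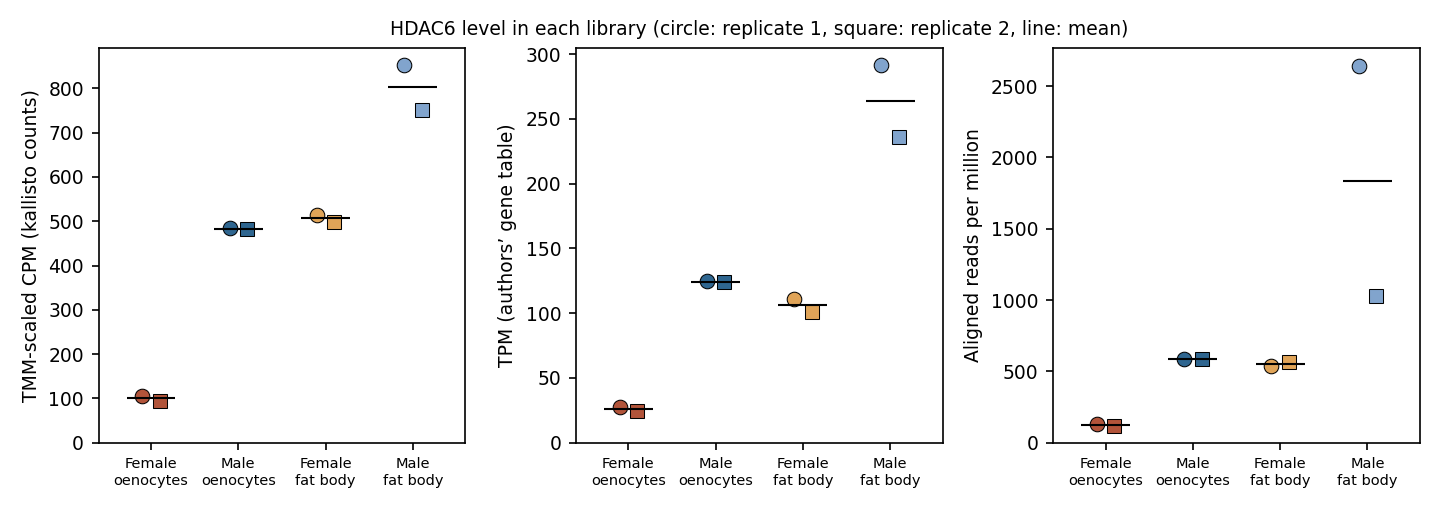
HDAC6 in each library as TMM-scaled CPM from kallisto counts, as TPM in the authors' gene table, and as aligned reads per 1000000 aligned reads. Circles are replicate 1, squares replicate 2 and lines the group mean of 2 libraries. Female oenocytes are lowest on each scale, and male fat body replicate 1 stands apart in aligned reads, at 2643.

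The first question was whether HDAC6 differs between the tissues within a sex. HDAC6 was chosen for its low level in female against male oenocytes, and those same libraries are an arm of the tissue comparisons, so the p-values below are not independent of the choice and lend it no support. In females HDAC6 was 5.05-fold lower in oenocytes (100.2 ± 8.06 CPM, SD, n = 2) than in fat body (506 ± 9.85 CPM). The log2 difference was -2.33 ± 0.101 (SE), with a 95% interval of -2.59 to -2.07 and an adjusted p of 0.000118 by edgeR's quasi-likelihood test with Benjamini-Hochberg adjustment over 14279 transcripts. At this threshold of 0.05, 26.0% of all transcripts were called in females, 13.1% lower in oenocytes like HDAC6 and 12.9% higher. Of the 1074 other X-linked transcripts that match a gene, 97 had a lower value than HDAC6, as did 556 of 5266 autosomal ones. Over 20 alternative settings, which use the same libraries, the log2 value ranged from -2.47 to -1.98. On unscaled TPM, 3366 of 5042 called genes were higher in oenocytes, against 1842 of 3713 transcripts here.

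In males HDAC6 was also lower in oenocytes than in fat body. It was at 483 CPM in oenocytes, the mean of 484 and 482, and at 802 ± 72.9 CPM (SD, n = 2) in fat body, a 1.66-fold difference. The log2 difference was -0.71 ± 0.121 (SE), with a 95% interval of -1.03 to -0.40 and an edgeR adjusted p of 0.0151, and each oenocyte library lay below each fat body library. In males 21.4% of transcripts were called, 11.3% in HDAC6's direction and 10.2% in the other, and on unscaled TPM 1542 of 4148 called genes were higher in oenocytes, against 1453 of 3060 here. The call was lost when aligned reads per gene were counted (-1.56, edgeR adjusted p 0.0657) and in the fit of only the 2 male groups (-0.72, edgeR adjusted p 0.0885). Whether the tissue difference itself differs between the sexes restates the contrast on which HDAC6 was chosen, so it was given no test.

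Muscle markers, like HDAC6, had lower levels in the oenocyte libraries. The flight and body muscle genes up and Mlc1, which encode troponin T and a myosin light chain, were at 3.55 to 5.78 and 2.48 to 4.46 TPM in oenocytes and at 13.4 to 19.3 and 9.97 to 14.4 TPM in fat body. Mlc1 was called between tissues in females (-2.07, edgeR adjusted p 0.0232) and not in males (-1.89, edgeR adjusted p 0.0768). Between the sexes in oenocytes, up and Mlc1 had the opposite order to HDAC6. In female oenocytes up was at 5.73 and 5.78 TPM and Mlc1 at 3.18 and 4.46 TPM. In male oenocytes up was at 3.55 and 4.03 TPM and Mlc1 at 2.48 and 2.72 TPM. The third muscle gene measured, Act88F, was at 0.31 TPM or less in each library. The part of these transcripts in the HDAC6 difference was not tested.

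The sex difference follows as a description. In oenocytes HDAC6 was 4.82-fold lower in females, a log2 difference of -2.28 ± 0.113 (SE). Both female libraries lay far below both male libraries on each of the 3 scales. The log2 value ranged from -2.38 to -2.16 over the 20 alternative settings, and aligned reads gave -2.22. Of all transcripts tested in this contrast, on which HDAC6 was chosen, 2.0% were called, 1.63% higher and 0.371% lower in females. On unscaled TPM 247 of 358 called genes were higher in females, against 233 of 286 here.

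In fat body HDAC6 was 1.58-fold lower in females by TMM-scaled CPM, a log2 difference of -0.66 ± 0.0960 (SE), where 6.13% of transcripts were called, 2.84% higher and 3.28% lower in females. The size of this difference depended on the scale. Unscaled TPM gave a log2 difference of -1.30 with a pseudocount of 1. On that scale the median of all genes with a mean of at least 1 TPM lay at -0.63, and HDAC6 minus this median was -0.67. There 4809 of 5088 called genes were lower in females with no such minimum, against 469 of 875 transcripts by TMM-scaled counts. Female fat body libraries held 44.7% and 44.9% of their counts in the 10 most abundant transcripts, and male ones 18.1% and 17.6%. With the 10 transcripts most abundant over all libraries left out and TMM factors computed anew, the HDAC6 value was -0.64.

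**Figure D2:**
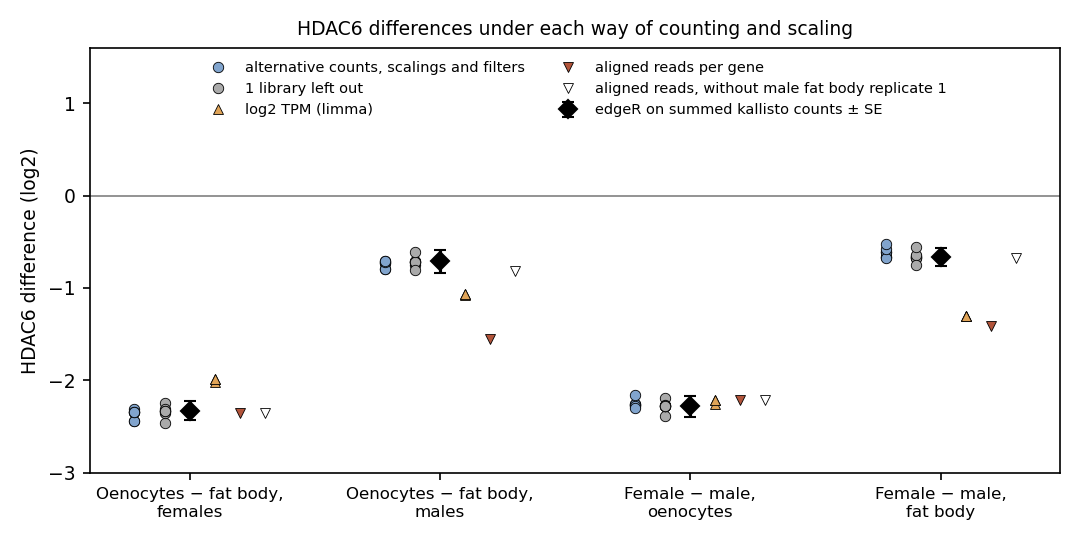
Log2 difference of HDAC6 in each of the 4 comparisons, from edgeR on summed kallisto counts with its SE (black diamonds, -2.33, -0.71, -2.28 and -0.66 from left to right) and from each alternative way of counting, scaling or leaving out a library. Each value is below 0. The values from unscaled TPM and from aligned reads lie lowest in the comparisons that include male fat body. An exception is the fat body sex difference from aligned reads without male fat body replicate 1, at -0.68.

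Among the 1075 X-linked transcripts that match a gene, the median sex difference (log2, female minus male) was 0.14 in oenocytes and -0.030 in fat body. The 5266 autosomal transcripts had medians of -0.035 and -0.17. HDAC6, at -2.28 and -0.66, lay below both X medians. HDAC6 was chosen for its low value in oenocytes, so its low place there was set by the choice. In oenocytes 22 of the 1074 other X-linked transcripts had a lower value than HDAC6, as did 113 of the 5266 autosomal ones. In fat body 202 X-linked and 1080 autosomal transcripts did. Over all 1075 X-linked transcripts, HDAC6 included, 8 were called lower in female oenocytes and 42 higher, together 4.65%. Of the autosomal ones 22 were lower and 89 higher, together 2.11%. In fat body 50 X-linked transcripts were lower in females and 68 higher (11%), and 262 autosomal ones lower and 172 higher (8.24%).

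**Figure D3:**
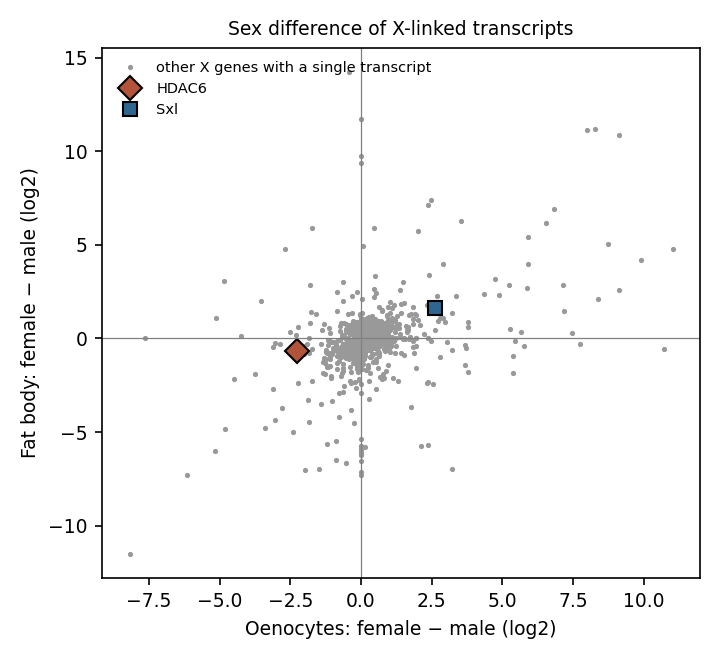
Sex difference of each X-linked transcript that matches a gene, as log2 female minus male in oenocytes (horizontal axis) and in fat body (vertical axis). HDAC6 lies at -2.28 and -0.66, in the quadrant lower in females in both tissues, opposite to Sxl at 2.63 and 1.65. HDAC6 was chosen for its low value on the horizontal axis.

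The allele tables count reads that aligned to HDAC6 independently of kallisto and sort them by whether they carry the reference allele, the alternative allele, neither or conflicting ones. Reference stands for D. simulans and alternative for D. sechellia, because in each library the genes with a higher reference share also had a higher share of the D. simulans transcript copy. Pearson's r across genes was 0.707 to 0.801, with 414 to 725 genes, which are not independent replicates. Kallisto itself gave no allelic value for HDAC6. Its D. simulans and D. sechellia copies had the same length and received equal counts in each library, as did 41.2% to 42.3% of transcripts with at least 100 counts (to within 0.01 counts).

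HDAC6 had 623 and 390 aligned reads in female oenocytes and 1342 and 2113 in male oenocytes. In female fat body it had 1559 and 2125, and in male fat body 6628 and 3817. As reads per 1000000 aligned reads, these are 134 and 115 for female oenocytes, and 590 for each male oenocyte library. Fat body had 540 and 570 in females and 2643 and 1027 in males. The oenocyte and female fat body libraries thus kept the order seen in TPM, and the male fat body libraries differed from each other by far more than in estimated counts.

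Male fat body replicate 1 stood apart in 3 ways. Its aligned HDAC6 reads were 51.2% of the estimated HDAC6 counts, against 13.5% to 25.5% in the other libraries. Set against the same ratio of the whole library this was 2.19-fold, where the other libraries lay between 0.996 and 1.41. Of its HDAC6 reads 37.1% were allele-specific and 9.31% conflicting, against 13.8% to 18.1% and 1.80% to 5.22% elsewhere. Over all its genes these shares were 26.4% and 3.05%, within the ranges of the other libraries, 24.8% to 30.4% and 2.59% to 3.27%. Without this library the aligned reads gave a male tissue difference of -0.82 (edgeR adjusted p 0.106) and a fat body sex difference of -0.68.

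**Figure D4:**
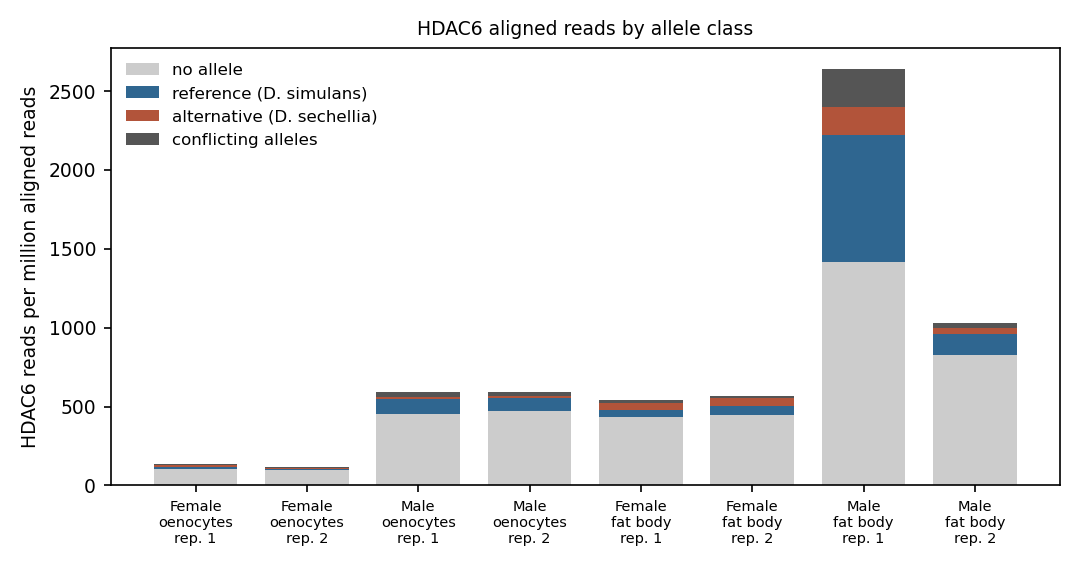
HDAC6 reads per 1000000 aligned reads in each library, stacked by allele class. The reference class (blue) is the larger of the allele-specific classes in all male libraries, and male fat body replicate 1 holds more reads of each class than any other library.

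In males, which carry a single X, HDAC6 reads came mostly from the reference allele. In male oenocytes 19 of 236 allele-specific reads were alternative in replicate 1, or 8.05% (95% exact binomial interval 4.92% to 12.3%), and 36 of 347 in replicate 2, or 10.4% (7.37% to 14.1%). In male fat body the alternative share was 18.2% (16.7% to 19.8%, 2460 reads) in replicate 1 and 21.1% (18.0% to 24.4%, 646 reads) in replicate 2. Each of the 4 male libraries thus had its HDAC6 reads chiefly from the D. simulans X. In these data reads assigned to the wrong allele and some males with a D. sechellia X cannot be told apart, and intervals cover counting error only. Over all other X-linked genes together the alternative share was 17.7% and 18.0% in male oenocytes. Male fat body gave 24.8% and 22.1% on this measure, and HDAC6 was lower in each of the 4 libraries. In male fat body replicate 2 the interval of HDAC6 held the pooled 22.1%. Gene by gene HDAC6 was not extreme. Among X-linked genes with at least 100 allele-specific reads in the group, 34.5% had a lower share in male oenocytes and 42.9% in male fat body.

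In females both alleles of HDAC6 were read. In female oenocytes 49 of 109 allele-specific reads were alternative in replicate 1, or 45.0% (35.4% to 54.8%), and 35 of 54 in replicate 2, or 64.8% (50.6% to 77.3%). In female fat body the share was 47.6% (41.3% to 54.0%, 250 reads) and 44.7% (39.6% to 49.8%, 385 reads). The fat body libraries lay close together and below equal shares, and the oenocyte libraries lay on either side of it.

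**Figure D5:**
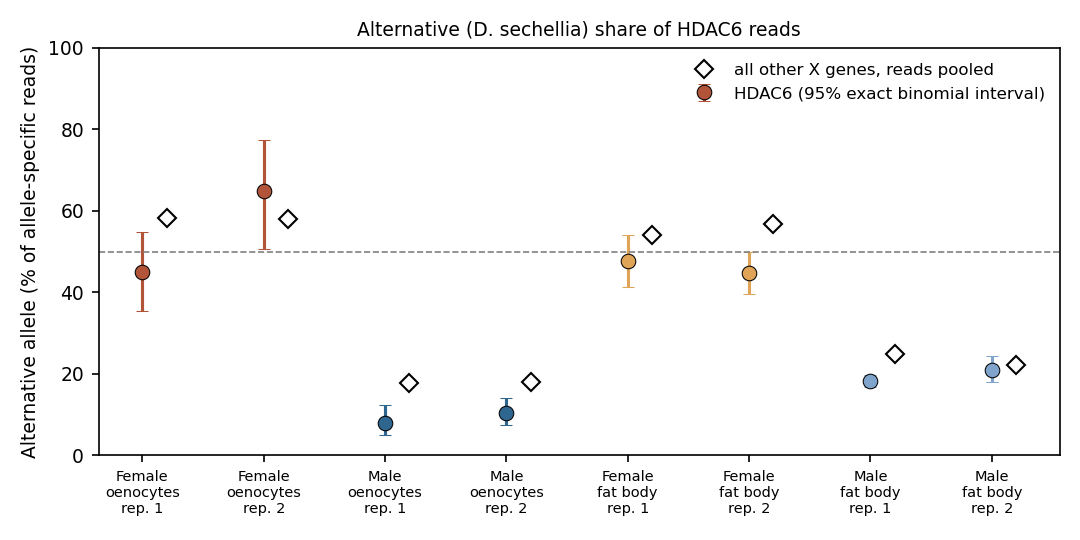
Alternative (D. sechellia) share of the allele-specific HDAC6 reads in each library (circles, 95% exact binomial interval) beside the pooled share of all other X-linked genes (open diamonds). Male libraries sit between 8.05% and 21.1%, female libraries between 44.7% and 64.8%, and the dashed line marks equal shares.

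Against equal shares of reads, no departure was detectable for HDAC6 in females. Some male HDAC6 reads were alternative too and may be misassigned, so equal shares of reads need not be equal levels of the alleles. The log2 ratio of alternative to reference was 0.19 ± 0.331 (SE) in female oenocytes, with a 95% interval of -0.53 to 0.92 (edgeR's quasi-likelihood test, adjusted p 0.693). It was -0.23 ± 0.268 in female fat body, with an interval of -0.81 to 0.36 (edgeR adjusted p 0.569). Of the 3991 genes tested, 30.7% were called in oenocytes and 25.7% in fat body. Most of these calls were towards the alternative allele (1141 of 1227 and 939 of 1027). The median log2 ratio of all 3991 genes was 0.72 in oenocytes and 0.69 in fat body, so equal shares were not the midpoint of the genes. The 708 X-linked genes among them had a median of 0.60 in oenocytes and 0.49 in fat body, so HDAC6 lay below the median X gene, and 31.9% and 20.9% of X-linked genes had a lower ratio. In oenocytes the direction differed between the libraries, with 0.88 without replicate 1 and -0.29 without replicate 2. When each library was centred on its own median gene, the oenocyte ratio of HDAC6 was -0.54, and the fat body ratio of HDAC6 was -0.92 and passed the threshold towards the reference (edgeR adjusted p 0.0202).

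The ratio did not differ detectably between the tissues. The log2 difference, oenocytes minus fat body, was 0.42 ± 0.426 (SE), with an interval of -0.51 to 1.35 (edgeR adjusted p 0.980), in a comparison where 0.150% of genes were called. It was 1.11 without female oenocyte replicate 1 and -0.062 without replicate 2, and neither passed the threshold.

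Set against all aligned reads of a library, the reference allele alone can be followed across the sexes, as a description. Reference reads per 1000000 aligned reads numbered 12.9 and 5.60 in female oenocytes and 95.4 and 86.8 in male ones, a 9.84-fold difference of the means. In fat body they numbered 45.4 and 57.1 in females and 803 and 137 in males, and the lower male library also lay above both female ones. Alternative reads on the same scale numbered 10.6 and 10.3 in female oenocytes and 8.35 and 10.1 in male ones, while female fat body gave 41.2 and 46.1 and male fat body 178 and 36.6. Male alternative reads may be misassigned, so they are no level of that allele to set against females. In both tissues the D. simulans allele of HDAC6 thus gave fewer reads per 1000000 in each female library than in any male library of the tissue. These values carry no TMM scaling, whose factors were 1.41 and 1.38 in male fat body and 0.902 and 0.870 in female fat body. Males also read a single X, mostly as reference, while females split their reads over both alleles, and the reference ratio includes that split. All aligned HDAC6 reads together differed 4.735-fold between the means in oenocytes, the contrast on which HDAC6 was chosen. Other X-linked genes were not set beside HDAC6 on this measure. Whether the difference is particular to HDAC6 was not tested.

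Of the partner and pathway lists, few genes carry a symbol in these files. The lists were of symbols, some of which name the same gene. From 11 symbols of other deacetylases only Rpd3 was matched, and from 13 of tubulin and microtubule genes none. From 13 symbols of chaperone and ubiquitin partners 6 were matched, from 13 of sex determination and dosage compensation 2, and from 15 of autophagy 2. For 9 of these 11 genes a single transcript could be tested. The other two, the heat shock factor gene Hsf and the splicing regulator tra, ranged from 11.5 to 18.8 and from 10.2 to 22.2 TPM over the libraries. Between tissues in females 7 were higher in oenocytes and 1 lower, with a median log2 difference of 2.04 against 0.017 over all transcripts, of which 12.9% were called higher and 13.1% lower. In males 5 were higher and 1 lower, with a median of 1.22 against 0 over all transcripts, of which 10.2% were called higher and 11.3% lower. HDAC6, lower in oenocytes of both sexes, had the opposite sign to most of them. With aligned reads, all 11 genes could be tested, and 5 were higher and 1 lower in oenocytes of females (28.8% of all genes called) and 4 higher and 0 lower in males (22.1%).

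Rpd3, the fly counterpart of the nuclear histone deacetylase HDAC1, was at 39.4 and 38.5 TPM in female oenocytes and 7.56 and 6.13 TPM in female fat body, a log2 difference of 2.21 ± 0.123 (SE, edgeR adjusted p 0.000259). In males Rpd3 was at 45.2 and 46.4 TPM in oenocytes and 28.4 and 22.6 TPM in fat body (1.22 ± 0.137, edgeR adjusted p 0.00366). The class I enzyme and HDAC6 were thus higher in opposite tissues. With aligned reads the male tissue call of Rpd3 was lost (1.03, edgeR adjusted p 0.0869). Between the sexes Rpd3 was lower in female fat body (-1.26, edgeR adjusted p 0.00962; not called with aligned reads, at -1.15) and not called in oenocytes (-0.26, edgeR adjusted p 0.655).

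Of 5 chaperone and ubiquitin genes tested, 5 were called higher in oenocytes of females and 4 in males, where 12.9% and 10.2% of all transcripts were. Hsp83, the fly Hsp90, was at 1210 to 1240 TPM in female and 1082 to 1084 TPM in male oenocytes, against 161 to 173 and 278 to 318 TPM in fat body. Its tissue difference was 2.57 in females and 2.23 in males (edgeR adjusted p 3.23e-05 and 6.14e-05). The co-chaperones DnaJ-1, an Hsp40 (2.04 and 1.42), and Hop, which joins Hsp70 to Hsp90 (2.12 and 1.76), were called in both sexes as well. Hsc70-4, a constitutive Hsp70, passed the threshold in females (0.29, edgeR adjusted p 0.0361) and in males was at -0.30 (edgeR adjusted p 0.0730); with aligned reads the female call was lost (0.019, edgeR adjusted p 0.959), and with RLE scaling factors it was lost too (0.17) and the male value passed (-0.38, edgeR adjusted p 0.0466).

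Genes of the autophagy route differed in direction. The autophagy receptor gene ref(2)P, the fly p62, was at 842 to 890 TPM in female and 809 to 819 TPM in male oenocytes and at 111 to 145 TPM in fat body, a log2 difference of 2.59 in females and 2.88 in males (edgeR adjusted p 3.18e-05 and 5.49e-05). Atg9, a membrane protein of the forming autophagosome, went the other way, as HDAC6 did (-1.27 and -0.94, edgeR adjusted p 0.00122 and 0.00959), though the male call was lost with aligned reads (-1.23, edgeR adjusted p 0.0566). Atg5, which takes part in conjugating the autophagosome protein Atg8 to lipid and is X-linked, was not called (0.21 and 0.15).

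Between the sexes the same 9 genes gave 1 call in oenocytes, higher in females, where 1.63% of all transcripts were called higher and 0.371% lower. In fat body 2 were higher and 2 lower in females, where 2.84% of all transcripts were called higher and 3.28% lower. The oenocyte call was Sxl, the X-linked master switch of female development, at 31.7 and 35.5 TPM in females and 5.32 and 5.50 TPM in males (2.63 ± 0.160 SE, edgeR adjusted p 0.00739). Between the tissues of females Sxl was higher in oenocytes (0.70, edgeR adjusted p 0.0113), a call lost with aligned reads (0.52, edgeR adjusted p 0.158). In fat body Sxl was called too (1.65, edgeR adjusted p 0.00483), as was ref(2)P (0.39, edgeR adjusted p 0.0232), and lower in females were Rpd3 and DnaJ-1 (-0.59, edgeR adjusted p 0.0274). With aligned reads only Sxl of the 11 genes was called in each tissue, higher in females, where 0.337% of all genes were called in oenocytes and 1.09% in fat body. Transcripts of testis and male accessory gland, a tissue that a male abdomen could add, were at or near 0. Their 8 measured genes summed to at most 0.23 TPM in male oenocytes, 0.07 TPM in female oenocytes and 0 TPM in female fat body. In male fat body they summed to 2.12 and 5.45 TPM, from the male germline genes dj and Mst84Da, beside 291 and 236 TPM of HDAC6, with the other 6 at 0.

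The genes whose TPM followed HDAC6 most closely were sought over the 8 libraries among 7277 genes with a mean of at least 1 TPM, by Pearson's correlation of log2(TPM + 1). These libraries form 4 groups of 2 and share their scaling, so the value describes likeness and carries no p. The closest gene was X-linked, GD24819 (r 0.995), at 11.9 to 13.1 TPM in female oenocytes, 32.4 to 33.8 in male oenocytes, 29.9 to 35.0 in female fat body and 59.5 to 60.4 in male fat body. The next, GD10877 on 2R (r 0.995), stayed at or below 2.06 TPM. The most nearly opposite gene was GD18654 on 3R (r -0.996), at 3196 and 3230 TPM in female oenocytes and at 2.26 and 2.04 TPM in male fat body, followed by GD12695 on 3L (r -0.981). Correlations of at least 0.95 were reached by 21 genes, and of -0.95 or less by 6.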

How the data were processed

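RNA-seq of 8 libraries was used. Per the submitters' processing notes kallisto 0.44.0 and STAR 2.5.1b were run; the genome build, index, variant filter and treatment of strand are not given in the sources used here. The deposited estimated counts and TPM cover 24115 transcripts as D. simulans and D. sechellia copies, and other deposited tables give TPM per gene and whole-number counts of aligned reads in 4 allele classes. Deposited log2 allele values were not used for tests. Transcript lengths were taken as deposited.

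The estimated counts of both copies were summed, rounded and tested with edgeR 4.0.16 (R 4.3.3; TMM, filterByExpr, glmQLFit, glmQLFTest), with 1 term per group, 7 samples and 3 residual degrees of freedom; the male oenocyte sum, a lone sample, was taken to have the spread of the other groups. Transcripts were named by genes with equal TPM (tolerance 0.005), which held for 7776. SE were back-calculated from edgeR's F statistic. Alleles were tested with edgeR on 2 columns per sample where each female group held 20 or more allele-specific reads; X-linked genes used female samples alone and other genes all samples. Limma 3.58.1 and DESeq2 1.42.0 served as alternatives. Fits were tested on simulated data. The gene, its lists and tests were chosen with earlier results of these data known; list members are named where called, others by value or range, and the genes most like HDAC6 by correlation, limited to 2 unnamed identifiers each way. Alternatives kept all 8 libraries apart, changed scaling, filter, pseudocount, read source or test, added a replicate block, or left out 1 library. No reference sequence was used here.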

Additional observations from a re-analysis of the deposited data

How the results depend on the processing

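The 2 tissue differences and the oenocyte sex difference of HDAC6 kept their direction in each of 20 alternative settings (8 of which left out 1 library), as did the fat body sex difference. Not all of these settings could move a value much. Some left out a library outside the contrast, and the D. simulans copy held the same HDAC6 counts as the D. sechellia copy. Without 1 library the female tissue difference was -2.47 to -2.25, the male one -0.81 to -0.61, the oenocyte sex difference -2.38 to -2.20 and the fat body one -0.75 to -0.56. In males the tissue call was lost with aligned reads (-1.56), in the fit of only those groups (-0.72) and, in an alternative chosen after seeing the data, with aligned reads without male fat body replicate 1 (-0.82). The fat body sex difference moved to -1.42 with aligned reads (-0.68 without male fat body replicate 1), to -1.30 with limma on log2(TPM + 1), with and without a filter on low values, and to -1.31 with a pseudocount of 0.1. The cause of these shifts was not tested.

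The allelic ratio in female oenocytes reversed to -0.54 when libraries were centred and ranged from -0.29 to 0.88 without 1 library. In female fat body it passed the threshold only when centred (-0.92), and was -0.31 to -0.14 without 1 library. Its difference between tissues was -0.062 without female oenocyte replicate 2 (a reversal) and 1.11 without replicate 1. Kallisto's copies gave no ratio. With all 8 libraries apart 2 list genes were called between the sexes in oenocytes, against 1.

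The replicate numbers did not pair the samples (correlation of deviations -0.0079 to 0.094), and a fit with the replicate block gave -2.34, -0.73, -2.27 and -0.66 for the 4 expression values and 0.22, -0.23 and 0.45 for the allelic ones, changing no call. The ranges that follow leave out the alternative chosen after seeing the data. That alternative called fewer genes than their lows between tissues in each sex and between sexes in fat body. Calls over all transcripts ranged from 2136 to 5328 (main 3713) and 1637 to 4752 (3060) between tissues in females and males. Between sexes calls ranged from 8 to 1351 (286) in oenocytes and 81 to 5222 (875) in fat body. Leaving out 1 library took the sex counts to 45 to 303 in oenocytes and 125 to 882 in fat body, lowest without female fat body replicate 2 in both. Allelic calls ranged from 204 to 1494 (1227), 148 to 1258 (1027) and 4 to 16 (6, with 206 at an unadjusted p under 0.05). The settings tested unlike numbers of genes, so these counts are not alike in base. The lows of 204 and 148 came from the 708 X-linked genes alone, where 28.8% and 20.9% were called, against 30.7% and 25.7% of 3991. The 16 came from 8920 genes with no filter on allele-specific reads. Of the 5 genes most like HDAC6, 4 were shared with log2(TPM + 0.1) and 4 with a minimum mean of 10 TPM. Female oenocytes held 163 allele-specific HDAC6 reads and female fat body 635.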
